A study of Homo sapiens with 8 samples.

Results

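A set of 10 intermediate filament genes was followed in C4-2B cells that overexpressed MYCL and in H660 cells whose MYCL was knocked down. They were 5 keratin genes (KRT5, KRT7, KRT8, KRT18 and KRT19), the vimentin gene VIM, the nestin gene NES, and 3 genes for neuronal filament proteins (INA, NEFL and NEFM). The genes were chosen by name, as 10 of the 78691 genes of the count table. In C4-2B cells, VIM rose with MYCL, and KRT8, KRT18 and KRT19 were tested and not called. In H660 cells, NES rose and KRT19 fell after MYCL knockdown, the KRT19 call holding in 12 of 15 alternative fits. NEFL was also called lower, but on few counts and in only 7 of 15 alternative fits. Between the lines, H660 cells held far more KRT19, NES and INA transcript than C4-2B cells, and INA was at 0 counts in every C4-2B library.

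C4-2B is a castration-resistant prostate adenocarcinoma line, and H660 (NCI-H660) is a neuroendocrine prostate cancer line. C4-2B cells carried a lentiviral vector that was empty (C4-2B control) or that drove human MYCL together with EGFP from the EF1A promoter (C4-2B MYCL), and H660 cells received a non-targeting shRNA (H660 shCtrl) or shRNA against MYCL (H660 shMYCL), delivered by adenovirus per the series description. The treatment protocol speaks of cells collected after stable expression or knockdown, and the study also describes a lentiviral shRNA against MYCL. Each of the 4 groups had 2 libraries of poly(A) RNA, all from established lines grown in culture. MYCL is the gene for L-MYC, a member of the MYC family of transcription factors.

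Intermediate filaments are the rope-like polymers of the cytoskeleton that give a cell its resistance to stretch. Epithelial cells build them from keratins, which pair a type II with a type I chain; KRT8 and KRT18 are the usual pair of simple glandular epithelium, including the luminal cells of the prostate, whereas KRT5 belongs to its basal cells. Vimentin is the filament protein of mesenchymal cells, nestin that of neural progenitors, and alpha-internexin (INA) and the neurofilament chains (NEFL, NEFM) those of neurons.

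Total counts ranged from 15177071 to 32344170 per library, and mitochondrial genes took 9.63% to 10.7% of the counts in C4-2B and 3.50% to 3.83% in H660 libraries. Levels are given as TMM-normalized CPM (counts scaled by library size and by TMM factors over the 8 libraries), and as TPM (counts scaled by gene length and library size) wherever genes are compared with each other. A gene was called when its adjusted p was under 0.05 and its log2 fold change was at least 0.5 in size. MYCL stood at 12.1 and 14.2 CPM in C4-2B control libraries, at 3733 and 4242 in C4-2B MYCL, at 104.2 and 81.8 in H660 shCtrl, and at 10.3 and 12.0 in H660 shMYCL, so it moved as labelled in every library. Luminal prostate markers summed to 2015 to 2029 TPM in C4-2B control and to 122.4 to 145.8 TPM in H660 shCtrl, where KLK3 and KLK2 were at 0. Neuroendocrine markers summed to 0.869 to 1.09 TPM in C4-2B control and to 1197 to 1358 TPM in H660 shCtrl. In bulk RNA, fewer cells expressing a gene and less RNA per cell cannot be told apart.

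The promoters of VIM, NES and INA are shown because these genes gave the rise in C4-2B cells, the rise in H660 cells and the widest gap between the lines. Each run covers 250 bases before and 50 bases after the transcription start, read 5′ to 3′ on the strand of the gene from RefSeq promoters of GRCh38.p14. Capitals mark GGGCGG (a GC box) or CAGCTG (an E-box form) on either strand; CACGTG (the E-box of MYC and MAX) and CACCTG (an E-box form of SNAI and ZEB factors) were searched in the same way.

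VIM, chr10:17227991-17228290, plus strand: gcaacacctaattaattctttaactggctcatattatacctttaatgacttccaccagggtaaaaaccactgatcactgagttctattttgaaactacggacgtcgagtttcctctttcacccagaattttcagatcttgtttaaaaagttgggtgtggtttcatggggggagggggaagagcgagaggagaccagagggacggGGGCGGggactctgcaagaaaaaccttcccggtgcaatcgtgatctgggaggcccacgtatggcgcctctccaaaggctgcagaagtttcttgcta

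NES, chr1:156677358-156677657, minus strand: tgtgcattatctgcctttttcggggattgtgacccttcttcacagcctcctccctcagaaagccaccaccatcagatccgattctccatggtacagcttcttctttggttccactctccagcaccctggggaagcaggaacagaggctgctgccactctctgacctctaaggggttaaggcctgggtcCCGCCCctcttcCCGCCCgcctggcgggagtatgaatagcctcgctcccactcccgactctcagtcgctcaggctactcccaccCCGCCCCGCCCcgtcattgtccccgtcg

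INA, chr10:103276888-103277187, plus strand: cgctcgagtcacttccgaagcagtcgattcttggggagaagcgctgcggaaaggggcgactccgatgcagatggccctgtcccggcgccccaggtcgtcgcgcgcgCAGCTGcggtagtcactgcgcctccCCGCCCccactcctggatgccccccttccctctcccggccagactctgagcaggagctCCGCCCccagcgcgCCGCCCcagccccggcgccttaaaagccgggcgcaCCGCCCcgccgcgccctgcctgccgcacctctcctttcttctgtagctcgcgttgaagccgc

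The VIM window held 1 GGGCGG match, the NES window 4, of which the last 2 share a base, and the INA window 4 together with 1 CAGCTG match. GGGCGG occurs in 45% and CAGCTG in 17.9% of the 35116 promoters of the table, while CACGTG, found in 7.26% of them, and CACCTG, found in 20.6%, had no match in these 3 windows. The INA window held 35 CG dinucleotides against 10 in the VIM window and 14 in the NES window, with a median of 14 over all promoters. A match describes the letters of the window and is not a binding site.

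KRT8 and KRT18, the keratin pair of luminal epithelium, were the most abundant filament transcripts in all 8 libraries. By TPM, which corrects for transcript length, KRT8 stood at 330.4 and 303.2 and KRT18 at 328.4 and 325.3 in the C4-2B control libraries, so their values overlapped there. KRT19 followed at 27 and 24.5, VIM at 15.8 and 18.1, and NES at 2.70 and 2.73, and these steps did not overlap. In H660 shCtrl the order was KRT8 (818.6 and 807.9 TPM), KRT18 (451.4 and 457.0), KRT19 (247.8 and 267.2), INA (78.5 and 63.0), NES (53.6 and 50.9) and VIM (30.9 and 26.4), without overlap between neighbours. KRT7 and NEFL stayed under 8 TPM in every library. The 10 genes summed to 674.4 to 795.2 TPM in C4-2B libraries and to 1679 to 1798 TPM in H660 libraries, and keratins made up 95.2% to 97.3% of that sum in C4-2B and 88.2% to 91.6% in H660.

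**Figure D1:**
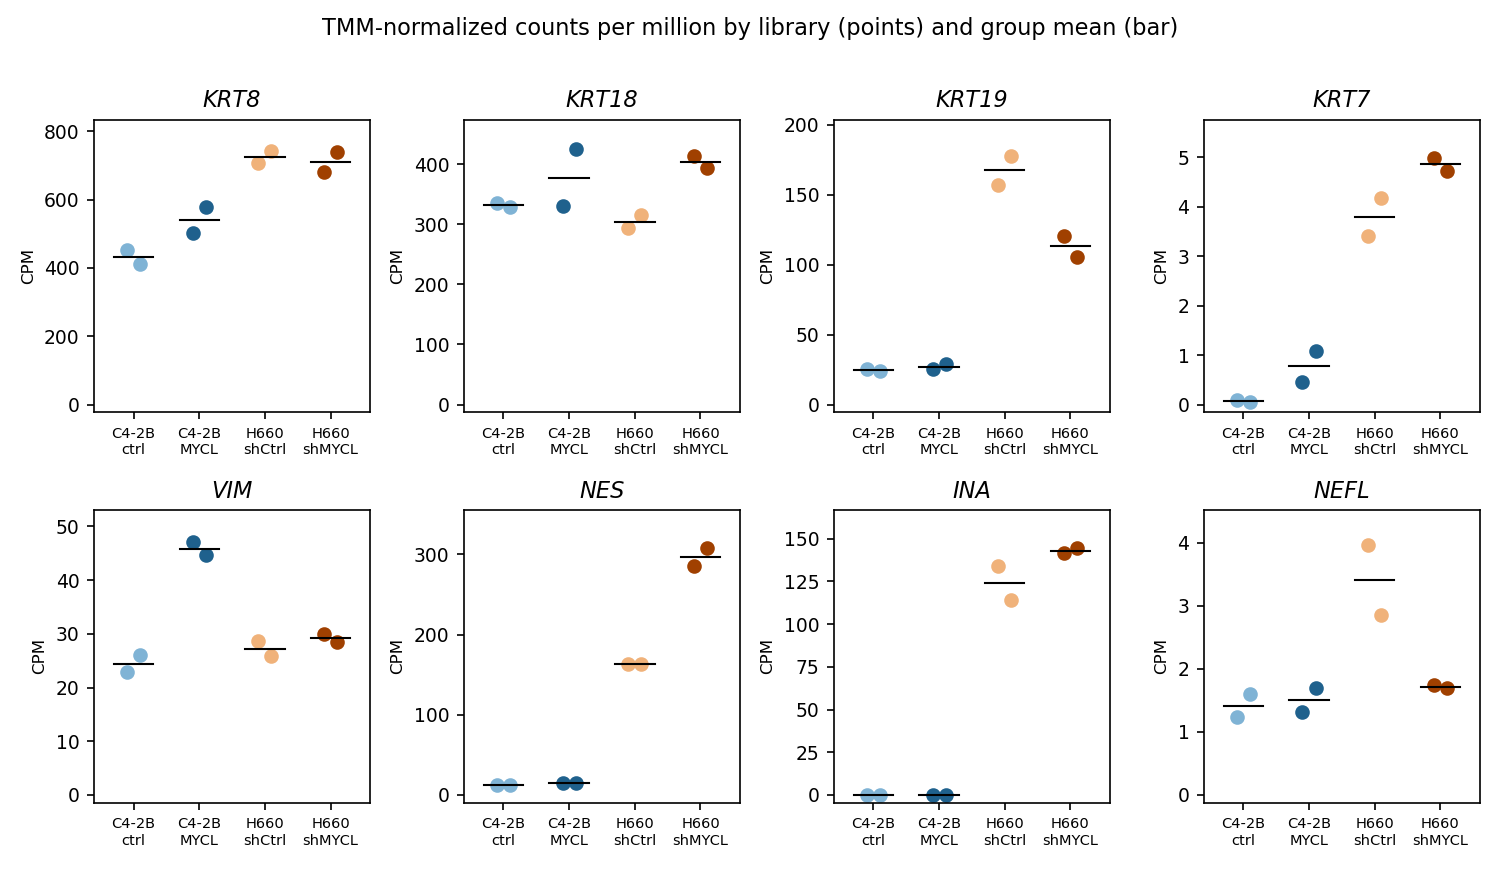
TMM-normalized CPM (vertical axes, linear from 0) of the 8 filament genes with more than 1 count, by library (points) and group mean (bars), with 2 libraries in each of the 4 groups. VIM is highest in both C4-2B MYCL libraries (47.0 and 44.6 CPM), NES in both H660 shMYCL libraries (285.7 and 308.3 CPM), and INA is at 0 in all C4-2B libraries.

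In C4-2B cells, VIM was the only one of the 6 tested filament genes called after MYCL overexpression. The share called over all genes of this comparison was 19.9% of 16866, with 11.8% called higher and 8.12% lower. VIM encodes vimentin, and its 4 libraries read 23.0 and 26.0 CPM in control and 47.0 and 44.6 CPM in MYCL cells. Both MYCL libraries lay above both control libraries. Its log2 fold change was 0.91 (SE 0.096, adjusted p = 2.17e-04; n = 2 per group, edgeR quasi-likelihood test), and it was called in each of the 15 alternative fits, at 0.74 to 1.00. On the TPM scale the median of all genes shifted by -0.14 in this comparison, the share of calls that were higher changed from 59.2% to 33.5%, and VIM stood at 0.74 on log2(TPM + 1).

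VIM lies at chr10:17228241-17237593 on the plus strand (GRCh38, GENCODE 44), and the antisense gene VIM-AS1 overlaps 12.7% of its exon bases. VIM-AS1 held 174 and 124 counts without and 172 and 160 counts with MYCL overexpression, and its log2 fold change was 0.81 (SE 0.170, adjusted p = 0.00616), against 706, 585, 825 and 739 counts for VIM. Whether counting used the strand is not given in the sources used here, so the reads of the pair cannot be told apart in the overlap. Fibroblast and smooth muscle markers summed to 3.05 to 3.57 TPM in control and 6.52 to 7.11 TPM in MYCL cells, and 2 of the 3 tested of these 8 markers were called higher; COL1A2, DCN and LUM were at 0 in all 4 libraries. Luminal prostate markers summed to 2015 to 2029 TPM in control and 1295 to 1432 TPM in MYCL cells, with 2 of 7 called lower. Endothelial markers summed to 1.06 to 1.19 and 1.38 to 1.48 TPM, and immune markers to 8.86 to 11.4 and 24.1 to 26.0 TPM, with PTPRC and HBB at 0. Their part in the VIM difference was not tested.

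KRT8, KRT18 and KRT19 were not called in C4-2B cells. KRT8, the type II chain of the luminal pair, read 452.7 and 410.9 CPM in control and 503.6 and 579.0 CPM in MYCL libraries, without overlap. Its log2 fold change of 0.33 (SE 0.087) had an adjusted p of 0.0176 but was under the 0.5 set for a call. KRT18, its type I partner, read 335.0 and 328.1 CPM against 330.0 and 424.2 CPM, and these groups overlapped. KRT18 had a log2 fold change of 0.19 (SE 0.107, adjusted p = 0.201), which was 0.37 (adjusted p = 1.47e-04) without C4-2B MYCL replicate 1 and 0.00083 (adjusted p = 0.994) without C4-2B MYCL replicate 2. KRT19, a type I keratin of simple and glandular epithelium, read 25.4 and 24.3 CPM against 25.5 and 28.7 CPM, with a log2 fold change of 0.13 (SE 0.099, adjusted p = 0.354).

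KRT7, a type II keratin of ductal epithelium, was too low to enter the test in C4-2B cells. It held 3 and 1 counts in the controls against 8 and 18 with MYCL overexpression, a ratio of 10.2 after scaling with a 95% exact interval of 3.52 to 40.0 that covers counting error only. KRT5, the type II keratin of basal cells, was at 0 counts in 7 libraries and at 1 count in the library H660 shMYCL replicate 2, where the 0s allow up to 3 counts in each library. NEFM, the medium neurofilament chain, was at 0 in all 8 libraries.

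The neural filament genes of C4-2B cells stayed low. NES, the gene for nestin, read 12.9 and 12.9 CPM in the controls against 14.5 and 15.3 CPM with MYCL overexpression (log2 fold change 0.21, SE 0.117, adjusted p = 0.192). NEFL, the light neurofilament chain, held 38 and 36 counts in the controls against 23 and 28 with MYCL overexpression, and its log2 fold change of 0.09 (SE 0.387, adjusted p = 0.877) turned to -0.10 without C4-2B control replicate 1 and likewise without C4-2B MYCL replicate 2. INA, the gene for alpha-internexin, was at 0 counts in the 4 libraries. The median log2 fold change of the 6 tested filament genes was 0.20, against -0.0017 over all tested genes.

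In H660 cells, 3 of the 8 tested filament genes were called after MYCL knockdown, NES higher and KRT19 and NEFL lower. The share called over all genes of this comparison was 16.2% of 16980, with 7.18% called higher and 8.99% lower. NES read 162.8 and 163.5 CPM in shCtrl and 285.7 and 308.3 CPM in shMYCL libraries. The shMYCL libraries lay well above the shCtrl libraries, whose values nearly coincided. Its log2 fold change was 0.86 (SE 0.103, adjusted p = 3.18e-05), and it was called in 14 of 15 alternative fits, the exception being limma on log2(TPM + 1) without a filter (0.85, adjusted p = 0.0802).

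KRT19 moved the opposite way. It read 157.4 and 177.7 CPM in shCtrl and 120.7 and 105.7 CPM in shMYCL libraries, without overlap. The log2 fold change was -0.57 (SE 0.111, adjusted p = 0.00173). This value is close to the 0.5 set for a call, and the call was lost without H660 shCtrl replicate 2 (-0.48) or without H660 shMYCL replicate 2 (-0.47), and in limma on log2(TPM + 1) without a filter (-0.56, adjusted p = 0.117). The keratin lies at chr17:41523617-41528308 on the minus strand, and 1 count in all fell on its pseudogenes.

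NEFL was the least abundant of the called genes. It held 71 and 56 counts in shCtrl and 28 and 28 counts in shMYCL libraries, or 3.97, 2.86, 1.75 and 1.70 CPM. Its log2 fold change of -0.99 (SE 0.346, adjusted p = 0.0473) stood at the edge of the threshold. It was called in 7 of 15 alternative fits, with an adjusted p of 0.138 in DESeq2, of 0.281 without H660 shCtrl replicate 1, of 0.115 without H660 shMYCL replicate 1 and of 0.132 without H660 shMYCL replicate 2.

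The luminal keratin pair of H660 cells gave no call. KRT18 read 292.8 and 314.7 CPM in shCtrl and 413.8 and 392.9 CPM in shMYCL libraries, without overlap, and its log2 fold change of 0.41 (SE 0.103, adjusted p = 0.00957) was under the 0.5 set for a call. KRT8 read 707.2 and 742.0 CPM against 681.8 and 739.7 CPM, with overlapping groups and a log2 fold change of -0.03 (SE 0.104, adjusted p = 0.861). KRT8 and KRT18 overlap head to head on opposite strands of chromosome 12, where KRT8 covers 17.1% of the exon bases of KRT18. Pseudogenes of KRT8 held 1.05% to 1.49% and those of KRT18 0.115% to 0.725% of the counts of the parent gene across the 8 libraries.

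The remaining tested filament genes of H660 cells had smaller differences. INA read 133.9 and 113.8 CPM in shCtrl and 141.4 and 144.3 CPM in shMYCL libraries, with a log2 fold change of 0.20 (SE 0.109, adjusted p = 0.189). VIM read 28.6 and 25.8 CPM against 29.9 and 28.5 CPM, which overlapped, with a log2 fold change of 0.10 (SE 0.124, adjusted p = 0.595). VIM-AS1 in the same libraries held 318 and 383 counts against 168 and 177 counts, a log2 fold change of -0.82 (SE 0.147, adjusted p = 9.05e-04). KRT7 held 61 and 82 counts against 80 and 78 counts (log2 fold change 0.35, SE 0.259, adjusted p = 0.356). The median log2 fold change of the 8 tested filament genes was 0.15, against -0.0029 over all tested genes.

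Neuroendocrine markers summed to 1197 to 1358 TPM in shCtrl and 975.1 to 1091 TPM in shMYCL libraries, with 2 of 7 called lower. Luminal prostate markers summed to 122.4 to 145.8 and 117.2 to 118.5 TPM, with 1 of 3 tested called higher. Basal prostate markers summed to 54.15 to 66.06 and 53.13 to 55.82 TPM, with 1 of 3 tested called higher. Fibroblast and smooth muscle markers summed to 40.1 to 45.0 and 26.3 to 27.1 TPM, with 1 of 3 tested called lower and COL3A1, DCN, PDGFRB and THY1 at 0. Endothelial markers summed to 3.01 to 3.83 and 1.07 to 2.67 TPM, with 1 of 2 tested called lower, and immune markers to at most 0.563 TPM. Their part in the H660 differences was not tested.

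**Figure D2:**
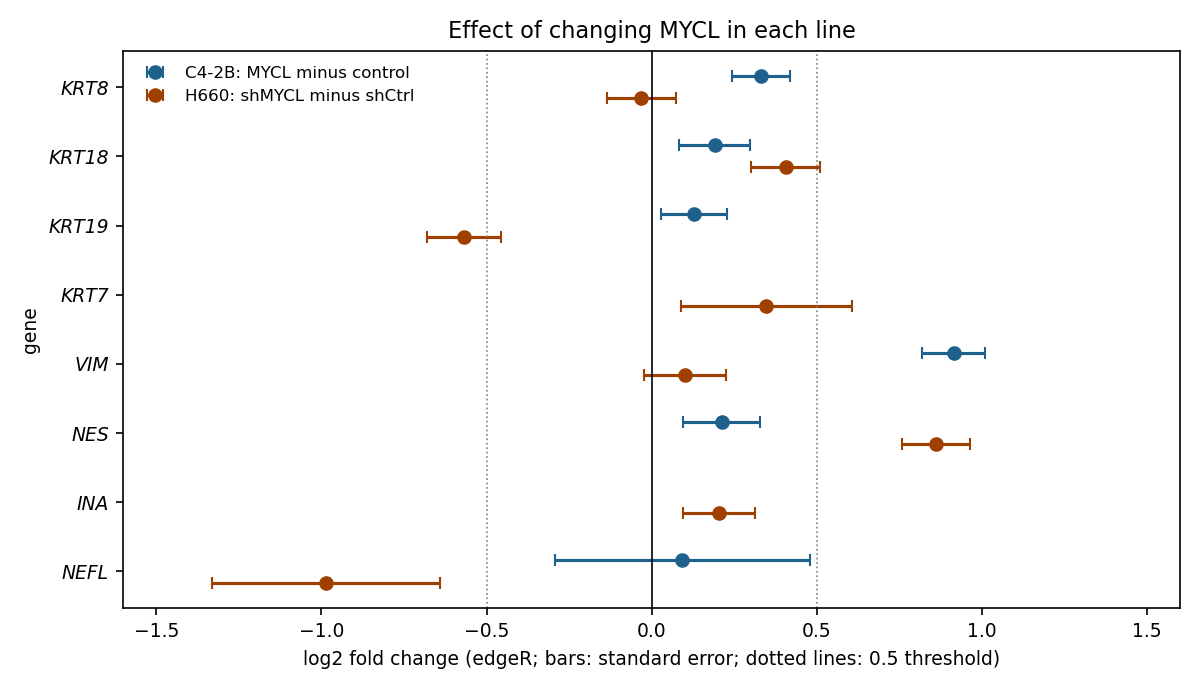
Log2 fold change with its standard error (horizontal axis) of the filament genes (vertical axis) for C4-2B MYCL minus control and for H660 shMYCL minus shCtrl, from edgeR fits of each line; dotted lines mark the 0.5 threshold, and genes that could not be tested in a line have no point. VIM stands apart in C4-2B (0.91), NES (0.86), KRT19 (-0.57) and NEFL (-0.99) in H660.

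The share of KRT19 in the sum of KRT18 and KRT19 was lower in both H660 shMYCL libraries than in both shCtrl libraries. KRT19 accounted for 35.4% and 36.9% of KRT18 and KRT19 TPM together in shCtrl and for 23.1% and 21.6% in shMYCL libraries. In C4-2B cells this share was 7.59% and 7.0% in the controls against 7.65% and 6.66% with MYCL overexpression, and these overlapped. The ratio of KRT8 to KRT18 TPM was 1.81 and 1.77 in shCtrl and 1.24 and 1.42 in shMYCL, against 1.01 and 0.932 in C4-2B control and 1.14 and 1.02 in C4-2B MYCL. The ratio of type II to type I keratin TPM ranged only from 0.867 to 1.18 over the 8 libraries. For groups of 2, the smallest p of an exact permutation test is 0.33, so these ratios and shares are given without a test.

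**Figure D3:**
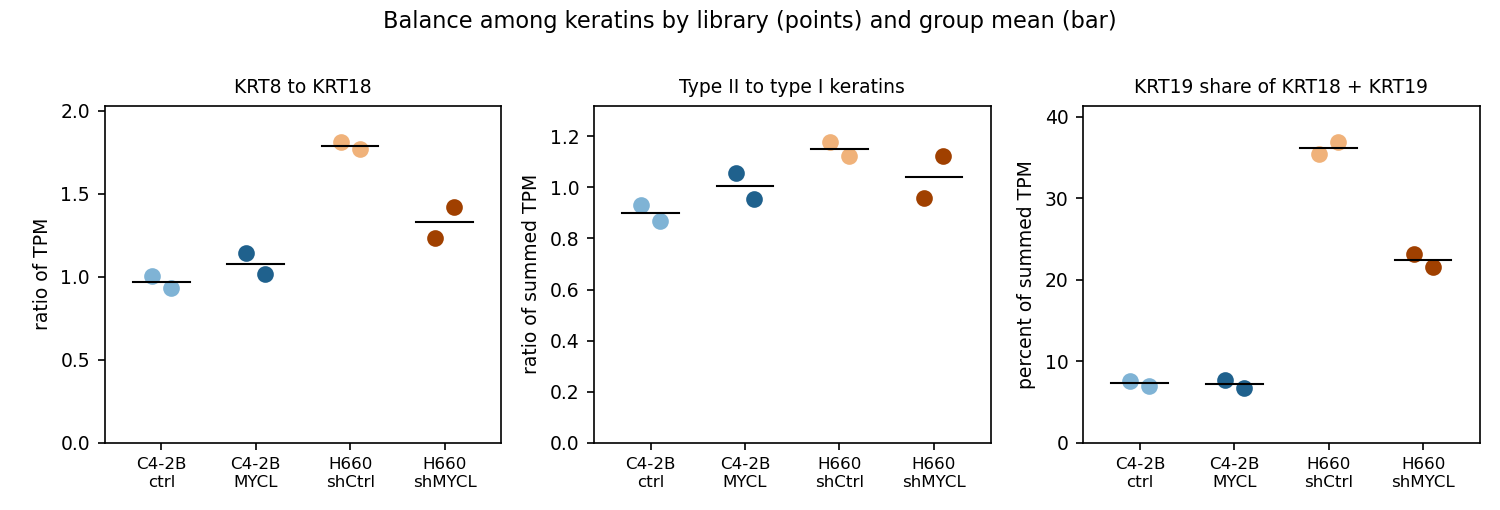
Ratio of KRT8 to KRT18 TPM, ratio of summed type II (KRT5, KRT7, KRT8) to type I (KRT18, KRT19) keratin TPM, and KRT19 as a percent of KRT18 and KRT19 TPM, by library (points) with the group mean (bars), 2 libraries per group, axes from 0. The KRT19 share is 35.4% and 36.9% in H660 shCtrl and 23.1% and 21.6% in H660 shMYCL.

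Between the control groups of the lines, 6 of the 8 tested filament genes were called, each higher in H660 shCtrl than in C4-2B control. The share called over all genes of this comparison was 69.8% of 19605, with 36.5% called higher and 33.3% lower. KRT7 and INA passed the filter on low counts only through the H660 libraries, which leaves 4 of 6 called among the others. INA held 2393 and 2229 counts in shCtrl libraries and 0 in C4-2B controls, at least 1073-fold higher against a floor of 3 counts per library, and at least 811.7-fold higher in H660 shMYCL than in C4-2B MYCL. NT5C2, which overlaps 13.9% of the exon bases of INA on the opposite strand, held 4341 and 3054 counts in the C4-2B control libraries where INA was at 0.

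NES read 162.8 and 163.5 CPM in H660 shCtrl against 12.9 and 12.9 CPM in C4-2B control, a log2 fold change of 3.66 (SE 0.095, adjusted p = 9.14e-13). KRT19 had a log2 fold change of 2.75 (SE 0.107, adjusted p = 3.62e-11), NEFL of 1.27 (SE 0.345, adjusted p = 0.00424) and KRT8 of 0.75 (SE 0.095, adjusted p = 7.73e-06). KRT7 held 143 counts over the shCtrl libraries and 4 over the C4-2B controls, a ratio of 50.9 with a 95% exact interval of 19.4 to 189.2 for counting error. VIM and KRT18 gave no call, at 0.16 (SE 0.109, adjusted p = 0.206) and -0.13 (SE 0.108, adjusted p = 0.295).

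The scale mattered for these last genes. On log2(TPM + 1) the median of all genes shifted by 0.52 in favour of H660, and the share of calls that were higher changed from 52.2% to 71.1%. KRT18 then stood at 0.47, the opposite direction and below that shift, and VIM at 0.73 (adjusted p = 7.41e-04), above it. VIM was called in each of the 3 fits on TPM, which raised the count of called filament genes from 6 to 7. NES stood at 3.84 and KRT19 at 3.27, both far above it.

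Whether the response differed between the C4-2B and H660 experiments was tested as the effect of high against low MYCL in C4-2B (MYCL minus control) minus that in H660 (shCtrl minus shMYCL). The C4-2B experiment was lentiviral overexpression and the H660 experiment was knockdown, adenoviral per the series description. Mean MYCL went from 13.1 to 3987 CPM in C4-2B and from 93.0 to 11.1 CPM in H660. Line, type of perturbation, vector and range of MYCL cannot be told apart in this test. Of the 8 tested filament genes 4 were called, each with a positive difference, namely NES, VIM, KRT18 and KRT7. KRT7 and INA passed the filter on low counts only through the H660 libraries, and the calls among the others were NES, VIM and KRT18. The share called over all genes of this comparison was 17.9% of 19605, with 9.59% positive and 8.33% negative. For NES the difference was 1.07 (SE 0.132, adjusted p = 1.69e-04) and for VIM 1.01 (SE 0.154, adjusted p = 6.84e-04), and both were called in each of 19 alternative fits. For NES it came mostly from the H660 libraries and for VIM from the C4-2B libraries, as their values in each line show.

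For KRT18 the difference was 0.59 (SE 0.153, adjusted p = 0.0152), from log2 fold changes of 0.19 with MYCL overexpression in C4-2B and of 0.41 with knockdown in H660, neither of them called alone. The C4-2B groups overlapped, with 1 of the 2 MYCL libraries above both controls. Its call was held in 12 of 19 alternative fits and was lost without C4-2B control replicate 2 (adjusted p = 0.0506), without C4-2B MYCL replicate 2 (0.42 on the log2 scale), without H660 shCtrl replicate 1 (adjusted p = 0.0569) and without H660 shMYCL replicate 1 (adjusted p = 0.0585). KRT7 had a difference of 3.61 (SE 0.740, adjusted p = 0.00452) that rests on 4 counts in the C4-2B controls and was 4.26 without C4-2B control replicate 1 and 2.88 without C4-2B MYCL replicate 2. KRT19 had a difference of -0.44 (SE 0.148, adjusted p = 0.0513), which passed both thresholds in 4 of 19 alternative fits, among them those without H660 shCtrl replicate 1 (-0.54) and without H660 shMYCL replicate 1 (-0.55). KRT8 (0.30, SE 0.134, adjusted p = 0.142) and NEFL (-0.90, SE 0.508, adjusted p = 0.248) gave no call, and the 0s of INA in C4-2B leave its difference without a value. On log2(TPM + 1) the median of all genes shifted by -0.11 in this comparison and the share of positive calls changed from 53.5% to 35.7%, while VIM stood at 0.85 and NES at 0.90.

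Beyond these 10 genes, some other keratins were called higher in C4-2B MYCL cells, and none of those tested was called lower. Of 23 other type II keratins 4 could be tested in C4-2B and 2 were higher, and of 27 other type I keratins 4 could be tested and 3 were higher. The share called higher over all genes was 11.8%. KRT14 and KRT16 would not have passed the filter on low counts on the control libraries alone, nor KRT73 on the MYCL libraries alone. Passing through a single group largely fixed the direction of these genes, so the tally is not a result about keratins. Not called were KRT73 (29 and 17 counts against 5 and 7, log2 fold change -1.26, SE 0.547, adjusted p = 0.107), KRT2 (-0.09, adjusted p = 0.914) and KRT10 (0.02, adjusted p = 0.903). KRT80, a type II keratin of epithelial cells, read 5.59 and 8.17 CPM in control and 25.8 and 21.5 CPM in MYCL libraries, a log2 fold change of 1.80 (SE 0.182, adjusted p = 1.83e-04) that was called in each of 15 alternative fits. KRT15, a basal type I keratin, held 32 and 26 counts against 60 and 58, or 1.04 and 1.16 CPM against 3.42 and 3.50 CPM (log2 fold change 1.66, SE 0.318, adjusted p = 0.00398). It was called in 14 of 15 alternative fits, the exception being limma on log2(TPM + 1) without a filter (0.91, adjusted p = 0.058).

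The other 3 keratins called higher were, like KRT15, low in counts. KRT16, a type I keratin of stressed epidermis, held 22 and 6 counts against 34 and 44 (log2 fold change 2.17, SE 0.515, adjusted p = 0.0109). Its value was 3.07 without C4-2B control replicate 1 and 1.67 without C4-2B control replicate 2, and unfiltered limma did not call KRT16 (adjusted p = 0.0818). KRT14, the type I partner of KRT5 in basal cells, held 8 and 15 counts against 31 and 22, a log2 fold change of 1.78 (SE 0.550, adjusted p = 0.0335). KRT14 lost its call without C4-2B control replicate 1 (adjusted p = 0.212) or C4-2B MYCL replicate 1 (adjusted p = 0.136), and its value was 2.55 without C4-2B control replicate 2. KRT6C held 35 and 39 counts against 60 and 50 (log2 fold change 1.18, adjusted p = 0.0252), lost its call without C4-2B control replicate 1 (adjusted p = 0.137) or C4-2B MYCL replicate 1 (adjusted p = 0.0617), and is a close paralog of KRT6A and KRT6B. Whether reads of these paralogs were shared was not tested. The 5 of 6 basal prostate markers analysed, which include KRT14 and KRT15, summed to 2.81 to 3.53 TPM in control and 5.80 to 6.05 TPM in MYCL libraries.

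In H660 cells, KRT75, a type II keratin of the hair follicle, was called. It held 10 and 13 counts in shCtrl and 49 and 58 in shMYCL libraries (log2 fold change 2.41, SE 0.412, adjusted p = 6.36e-04), without overlap. KRT75 would not have passed the filter on low counts on the shCtrl libraries alone. It was 1 of the 4 other type II keratins tested there, and neither of the 2 other type I keratins tested was called, beside 16.2% called over all genes.

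**Figure D4:**
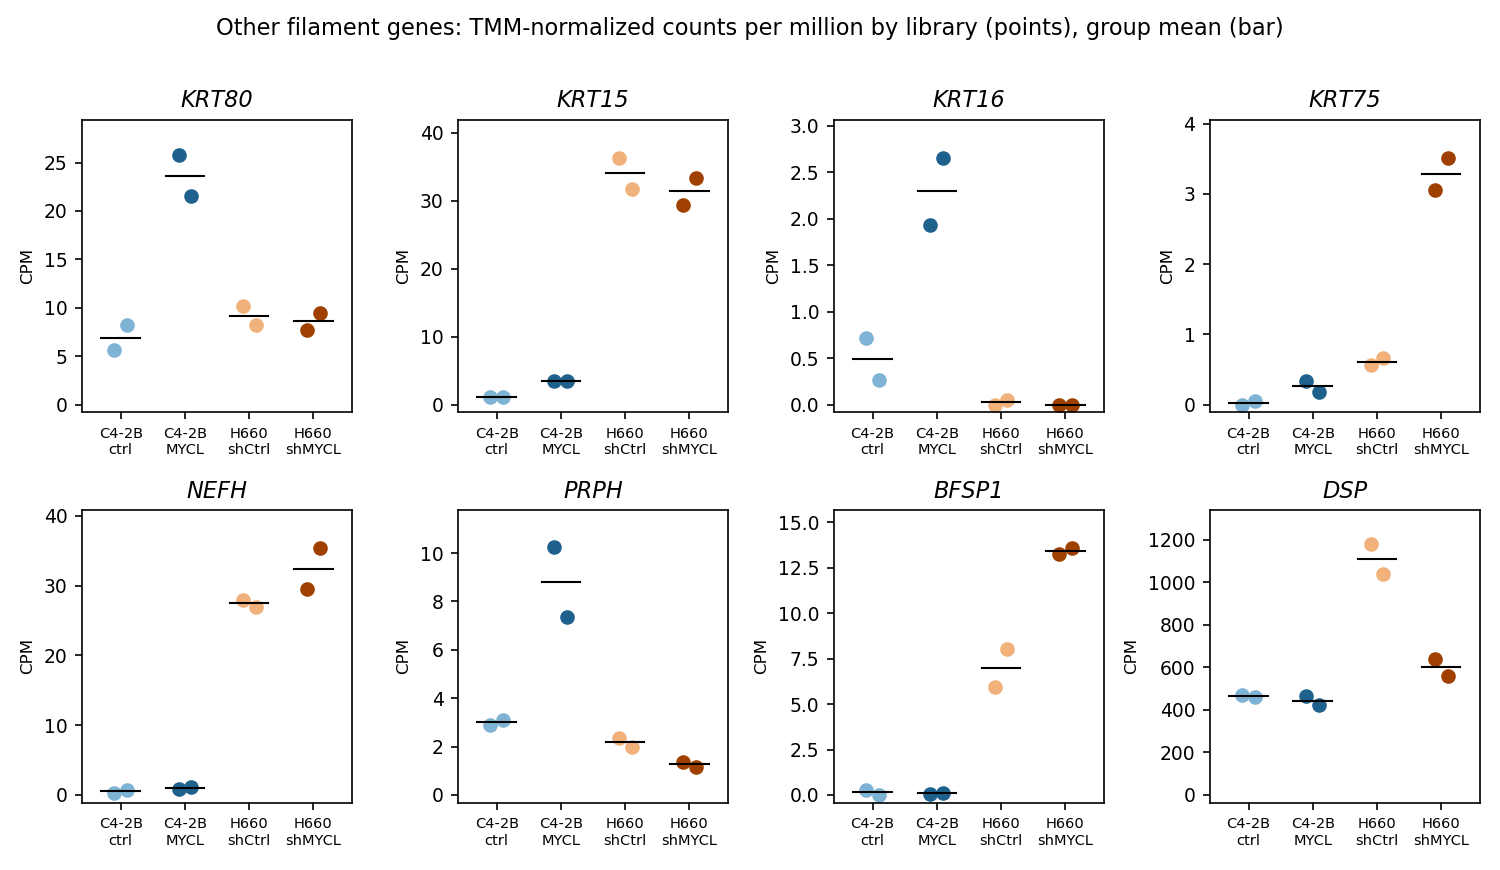
TMM-normalized CPM (vertical axes, linear from 0) of 8 further filament and linker genes by library (points) and group mean (bars), 2 libraries in each of 4 groups. KRT80, KRT15, KRT16 and PRPH are higher in both C4-2B MYCL libraries than in both controls, KRT75 and BFSP1 are higher and DSP is lower in both H660 shMYCL libraries than in both H660 shCtrl libraries.

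Among the 10 other filament genes, 7 could be tested in C4-2B cells, of which 2 were higher and 1 lower, beside 19.9% called over all genes. PRPH, the gene for the neuronal filament protein peripherin, read 2.89 and 3.11 CPM in control and 10.2 and 7.37 CPM in MYCL libraries (log2 fold change 1.56, SE 0.241, adjusted p = 0.00138). SYNM, the gene for synemin, had a log2 fold change of 0.81 (SE 0.179, adjusted p = 0.00759). SYNM was not called in the 3 fits on TPM, at 0.36 to 0.61 with adjusted p from 0.195 to 0.360. LMNB1, which encodes the nuclear filament protein lamin B1, read 241.3 and 247.8 CPM against 142.4 and 127.4 CPM, a log2 fold change of -0.85 (SE 0.079, adjusted p = 1.19e-04).

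In H660 cells 2 of 8 such genes were higher and none lower, beside 16.2% called over all genes. BFSP1, a filament gene of the lens, held 106 and 157 counts in shCtrl and 212 and 224 in shMYCL libraries (log2 fold change 0.93, SE 0.184, adjusted p = 0.00181). BFSP1 was not called in the fit of all 4 groups (adjusted p = 0.0635) or in unfiltered limma (adjusted p = 0.114). GFAP, the filament gene of astrocytes, held 17 and 17 counts against 32 and 40 (log2 fold change 1.27, SE 0.422, adjusted p = 0.0374) and lost its call without any of the 4 libraries in turn, with adjusted p from 0.0852 to 0.244. NEFH, the heavy neurofilament chain, was not called in either line's own comparison but held 500 and 528 counts in H660 shCtrl against 9 and 16 in C4-2B control, a log2 fold change of 5.84 (SE 0.250, adjusted p = 9.67e-11) that was 5.26 without C4-2B control replicate 1 and 6.51 without C4-2B control replicate 2. In that comparison 5 of the 8 other filament genes tested were higher in H660 and 1 was lower, beside 69.8% called over all genes. BFSP1, among those higher, could be tested within H660 but not within C4-2B.

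Of 9 genes for proteins that link filaments to junctions or to other structures, 1 was called in each line's own comparison, which is below the shares called over all genes (19.9% in C4-2B and 16.2% in H660). DSP encodes desmoplakin, which anchors keratin filaments at desmosomes, and it held 21079 and 20332 counts in shCtrl and 10265 and 9213 counts in shMYCL libraries. Both shMYCL libraries lay well below both shCtrl libraries. Its log2 fold change was -0.89 (SE 0.113, adjusted p = 5.11e-05), and it was the linker called in H660 cells. In C4-2B cells DSP had a log2 fold change of -0.06 (SE 0.076, adjusted p = 0.553), and the difference between the lines was -0.96 (SE 0.139, adjusted p = 5.02e-04).

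The linker called in C4-2B cells was TCHP, the gene for the keratin-binding protein trichoplein, with 1047 and 693 counts in the controls against 392 and 318 with MYCL overexpression (log2 fold change -0.64, SE 0.110, adjusted p = 0.00238). Of 12 desmosome genes other than DSP, 9 could be tested in C4-2B and 2 were lower, beside 8.12% called lower over all genes. DSC3, among those lower, passed the filter on low counts only through the control libraries. None of the 8 tested in H660 was called, beside 16.2% over all genes, and the lists were not compared between the lines. In H660, PERP (log2 fold change -0.48, adjusted p = 0.00304), DSG2 (0.43, adjusted p = 0.0064) and JUP (-0.42, adjusted p = 0.0142) were under the 0.5 set for a call. In C4-2B, DSC2 (-0.42, adjusted p = 0.00302), PKP2 (-0.42, adjusted p = 0.0422), DSG2 (-0.30, adjusted p = 0.013) and PKP3 (-0.27, adjusted p = 0.0318) were also under it. JUP (0.08), PERP (-0.11) and PKP1 (-0.73) had adjusted p from 0.329 to 0.451 there. In C4-2B cells DSC1, a desmosomal cadherin, held 175 and 72 counts against 21 and 22 (log2 fold change -1.82, SE 0.358, adjusted p = 0.00462). DSC3, another, held 33 and 20 counts against 4 and 3 (log2 fold change -2.23, SE 0.576, adjusted p = 0.0162) and lost its call without C4-2B control replicate 1 (adjusted p = 0.164), without C4-2B control replicate 2 (adjusted p = 0.0732) and, likewise, without C4-2B MYCL replicate 2 (adjusted p = 0.0705).

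Between the control groups, other keratins were called in both directions. KRT15 held 650 and 623 counts in H660 shCtrl against 32 and 26 in C4-2B control (log2 fold change 4.96, SE 0.171, adjusted p = 1.17e-11). KRT14, KRT6C and DSC1 were at 0 in both H660 shCtrl libraries, and KRT86, a hair keratin, was at 0 in both C4-2B controls and held 11 and 34 counts in H660 shCtrl. Of the other type II keratins 2 were higher and 3 lower of 7 tested, and of the other type I keratins 2 were higher and 2 lower of 5, beside 69.8% called over all genes. Of these, KRT2, KRT6C, KRT73, KRT14 and KRT16 could be tested within C4-2B but not within H660. KRT75, KRT81 and KRT86 could be tested within H660 but not within C4-2B. Passing the filter through a single line largely fixed the direction of these genes, so the tally is not a result about keratins. Linkers were higher in H660 for 4 and lower for 1 of 9, beside the same 69.8%. Among those higher were PPL, the gene for periplakin (log2 fold change 3.23, SE 0.149, adjusted p = 2.11e-10), and DST, the gene for dystonin (2.88, SE 0.122, adjusted p = 8.94e-11).

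For the 6 filament genes with at least 10 counts in every library, the genes with the most similar pattern were sought among 12771 genes, by the root mean square difference of centred log2 CPM over the 8 libraries. VIM was closest to FTH1 (0.104) and FGFR1 (0.115), and NES to PARD3 (0.095) and USP11 (0.167). KRT19 was closest to GLCCI1 (0.120) and KCNS3 (0.142). KRT8 was closest to DMTN (0.065) and DDX50 (0.068), and KRT18 to SLX9 (0.084) and RNF4 (0.084). The 10 genes themselves were left out of the search.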

How the data were processed

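RNA was measured in 8 libraries, 2 for each of 4 groups taken from the sample labels. The authors deposited estimated counts per gene (78691 genes, not normalized between libraries) and TPM values (65535 genes), in which counts were divided by gene length from Ensembl and scaled per library. The genome in the submitters' processing notes is hg38; the aligner and the counting tool are not given in the sources used here. Of the non-zero counts, 22.4% lay more than 0.01 from a whole number, and all were rounded before the tests.

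The 2 groups of a line were fitted together, without the other line, in edgeR 4.0.16 (R 4.3.3) with TMM factors, filterByExpr and the quasi-likelihood test, and the comparison of the lines and of their responses came from a fit of the 4 groups. P-values were adjusted by Benjamini-Hochberg over all genes tested. CPM values use TMM factors over 8 libraries, so they can differ slightly from the fold changes within a line. The study's own tool was DESeq2 within each line; DESeq2 1.42.0 and limma 3.58.1 on log2(TPM + 1) or log2(TPM + 0.1) were run as alternatives, with genes of at least 1 TPM in 2 libraries. Ratios of summed counts have 95% exact intervals, and a count of 0 allows up to 3 counts; both cover counting error only. The sample titles call the C4-2B control libraries biological replicates and the libraries of the other groups only replicates. Where nothing says that libraries came from separate cultures, p-values measure only the spread between these libraries. Common biological coefficients of variation were 0.083 in C4-2B and 0.0965 in H660.

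The filament genes and the other gene lists were chosen with earlier results of these data known. Named were all 10 filament genes and, of each other list, the at most 3 called genes with the largest log2 fold change in size within a line and the at most 2 between the lines; MYCL and VIM-AS1 were named as the perturbed gene and a possible sharer of reads. Gene positions and overlaps are from GENCODE 44, which holds 61458 of the identifiers, and promoters from the RefSeq table of GRCh38.p14, which matched 5 of the 10 genes. The genes most similar to NEFL are not reported here. Scripts were tested on simulated data. Figures were drawn with matplotlib 3.10.9 under Python 3.11.15.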

Additional observations from a re-analysis of the deposited data

Results flagged for a closer look

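The effect of high against low MYCL differed between the lines, by the test of the difference itself in edgeR, for 4 filament genes. Line cannot be told apart here from the type of perturbation, its vector and the range of MYCL. The difference, C4-2B minus H660, was 1.07 for NES, 1.01 for VIM, 0.59 for KRT18 and 3.61 for KRT7 on the log2 scale, and the share of all genes called in this test was 17.9%. KRT7 entered this test only through the H660 libraries, and its value rests on 4 counts in the C4-2B control libraries. The call of KRT18 was lost in 7 of 19 alternative fits. The groups of 2 libraries were too small to test for outlying libraries.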

How the results depend on the processing

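VIM in C4-2B cells and the differences between the lines of VIM and NES were called under every alternative fit run. In C4-2B cells the count of called filament genes was 1, and it was 2 without a filter on low counts, 2 in a fit of all 4 groups (KRT7 in addition), 2 with no minimum on the fold change (KRT8 in addition) and 0 when a log2 fold change of 1 was required. In H660 cells the count was 3, and it was 2 in DESeq2, in both filtered limma fits and in a fit of all 4 groups, 4 with no minimum on the fold change, 0 when a log2 fold change of 1 was required and 0 in limma on log2(TPM + 1) without a filter, which called 1 of 29413 genes in all. Between the control groups the count was 6, and it was 7 in the 3 limma fits (VIM in addition), 5 when a log2 fold change of 1 was required and 4 with at least 10 counts in every library. The count for the difference between the lines was 4, and 2 in that unfiltered limma fit. Leaving out each library in turn gave 1 to 2 in C4-2B, 1 to 2 in H660, 6 to 6 between the control groups and 3 to 4 for the difference; the 2 in C4-2B arose without C4-2B MYCL replicate 1 and the 1 in H660 without H660 shMYCL replicate 2. A lone library left in a group was taken to vary like the others. Directions turned for NEFL in C4-2B (reported value 0.09; -0.019 in unfiltered limma, -0.0973 with libraries thinned to the smallest total, -0.0984 to 0.28 with a library left out), for KRT8 in H660 (reported value -0.03; -0.0890 to 0.036 with a library left out) and for KRT18 between the control groups (-0.13; 0.47 on log2(TPM + 1), with and without a filter, and 0.47 on log2(TPM + 0.1)). The cause was not tested. The replicate numbers did not pair the libraries: the correlation of same-numbered deviations was 0.0069 in C4-2B, 0.0054 in H660 and 0.0506 between the control groups, and a fit with the replicate number as a block gave counts of 1, 3, 6 and 4, the same as without it. The named genes of the other lists were added to the alternatives after seeing the data, and none changed direction. Over all genes, the calls fell from 3355 to 1940 in C4-2B, from 2745 to 1 in H660 and from 3513 to 1898 for the difference in unfiltered limma, and in H660 to 1702 and 1600 in limma on log2(TPM + 1) and log2(TPM + 0.1). Without a minimum on the fold change they were 5895 in C4-2B and 4204 in H660, and at a log2 fold change of 1 they were 1411 and 1022, with 1666 for the difference. Depth limits KRT2, KRT7, NEFL, KRT6C, KRT14, KRT15, KRT16, KRT73, KRT75, KRT81, KRT86, DSC3 and GFAP. Each held fewer than 100 counts in every library of at least 1 comparison above.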
